A study of Bos taurus with 18 samples.

Results

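Early response genes outside the AP-1 family were followed in MAC-T, a bovine line of immortalised mammary epithelium, through a lactogenic medium, heat and recovery from heat. The genes were taken by name: EGR1, EGR2, EGR3, IER2, IER3, IER5, MYC, BTG2, ZFP36 and NR4A1, which are 10 of the 30642 genes of the count table. All 10 were found by symbol, and all 10 passed the filter on low counts that left 15158 genes tested. Poly-A RNA was sequenced in 18 libraries that form 6 groups of 3. Unheated undifferentiated cells (NHSUD) and heated undifferentiated cells (HSUD) stayed in a basal medium with insulin, hydrocortisone and fetal bovine serum. Unheated differentiated cells (NHSD), heated differentiated cells (HSD) and differentiated cells recovering for 2 h (D2R) or 6 h (D6R) received a lactogenic medium, which is the basal medium with ovine prolactin, dexamethasone and serum added. Heat was 42 °C for 1 h, and unheated and recovering cells were kept at 37 °C. All 6 groups shared the glucocorticoid and insulin of the basal medium, daily changes of medium and collection with trypsin, and the time from the last change of medium to collection is not given in the sources used here. Both unheated groups grew on one plate, both heated groups on another and both recovery groups on the remaining one, so that plate and heat, or plate and recovery, cannot be told apart. The 2 media without heat and the 2 recovery times were each compared within a plate. The 2 media with heat also shared a plate, but HSD was not compared directly with HSUD. The replicate number marks a repeat of the whole experiment, called a run here, and RNA of 2 technical replicates was pooled for each library.

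Early response genes are transcribed within minutes of a growth factor, hormone, serum or stress signal, without the need for new protein. Signals through the ERK kinases reach serum response factor and its ELK partners on their promoters, and most of the transcripts decay quickly because their ends carry AU-rich elements. The products include transcription factors (the EGR zinc finger proteins, NR4A1, MYC), proteins that act on RNA decay (ZFP36, which binds AU-rich elements, and BTG2, which recruits the deadenylase complex), and the IER proteins, among which IER5 is known to act with heat shock factor HSF1 and IER3 in cell survival. In mammary epithelium this class is best known for linking growth factors to proliferation.

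The libraries held 40.9 to 61.2 M counts. All 10 mammary epithelial marker genes had a median above 1 CPM, CPM being reads scaled to a common library total with TMM factors, and their summed level was 14460 to 25610 CPM. Among them KRT7 was called in the average heat effect described below, higher by 0.28 ± 0.07 with the replicate block (1 of 10, beside 6.10% of all genes). The fibroblast collagens COL1A1 and COL1A2 stayed at or below 0.347 CPM, and COL3A1 at or below 1.74 CPM. The leukocyte genes PTPRC and LYZ stayed at or below 0.104 CPM. Of the 8 fibroblast markers, only PDGFRA (7.46 CPM) and DCN (589 CPM) had a median above 1 CPM. The median of DCN exceeded those of the epithelial markers EPCAM (110 CPM) and CDH1 (221 CPM). The summed fibroblast markers spanned 428 to 688 CPM over the unheated groups, 449 to 821 CPM over the heated groups and 450 to 781 CPM over the recovery groups. Endothelial markers summed to at most 4.61 CPM and leukocyte markers to at most 2.88 CPM. Of these, only VWF (1.70 CPM) and CD68 (1.23 CPM) had a median above 1 CPM. The part of these genes in the results was not tested. In bulk RNA, fewer cells carrying a transcript and less of it per cell cannot be told apart.

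No one of the 10 genes passed the test in any of the 9 planned comparisons when the runs were not modelled. With the run as a block 2 did, each in 1 comparison. The comparisons set 1 group against another, except for the difference of the heat effects between the media. The test was edgeR's quasi-likelihood test, and a gene was called at a Benjamini-Hochberg adjusted p under 0.05 over all 15158 genes, and every adjusted p below comes from it. The background of calls was low in the same fits. Lactogenic against basal medium without heat called 0 of 10, beside 0% of all genes, and 0 of 10 with the block, beside 0.00660%. Heat called 0 of 10 in undifferentiated cells, beside 0.125% of all genes without the block and 0.633% with it. In differentiated cells heat called 0 of 10, beside 0.0990% and 0.554%. The difference of the heat effects between the media called 0 of 10 and 0% of all genes in both fits. There 88 genes (0.581%) without the block and 155 (1.02%) with it had an unadjusted p under 0.05. Both are fewer than that threshold gives without any effect. Recovery of 2 h called 0 of 10 against unheated cells, beside 0.0792% and 0.224%, and 0 of 10 against heated cells, beside 0.0528% and 0.389%. Recovery of 6 h against unheated cells called 0 of 10 without the block, beside 0.0132%, and NR4A1 alone with it, beside 1.45%. Recovery of 6 h against heated cells called 0 of 10 without the block, beside 0.0660%, and BTG2 alone with it, beside 3.27%. The direct comparison of 6 h with 2 h called 0 of 10 and 0% of all genes in both fits. An unadjusted p under 0.05 was held by 585 genes (3.86%) without the block and 1808 (11.9%) with it. The former is fewer than the threshold gives without any effect. So were the unblocked shares for the medium (1.67%), for heat in undifferentiated (4.21%) and differentiated cells (4.42%), and for 2 h against unheated (3.08%) and heated cells (3.53%). The unblocked shares at 6 h were larger, 6.07% against unheated and 8.34% against heated cells. A further comparison, the heat effect averaged over both media (6 heated against 6 unheated libraries), was added after values had been seen. It called ZFP36 without the block, beside 0.785% of all genes, and ZFP36, NR4A1 and BTG2 with the block, beside 6.10%. Among these calls NR4A1 and ZFP36 were lower in the heated or recovering cells, and BTG2 was lower after heat and higher at 6 h of recovery than after heat.

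**Figure D1:**
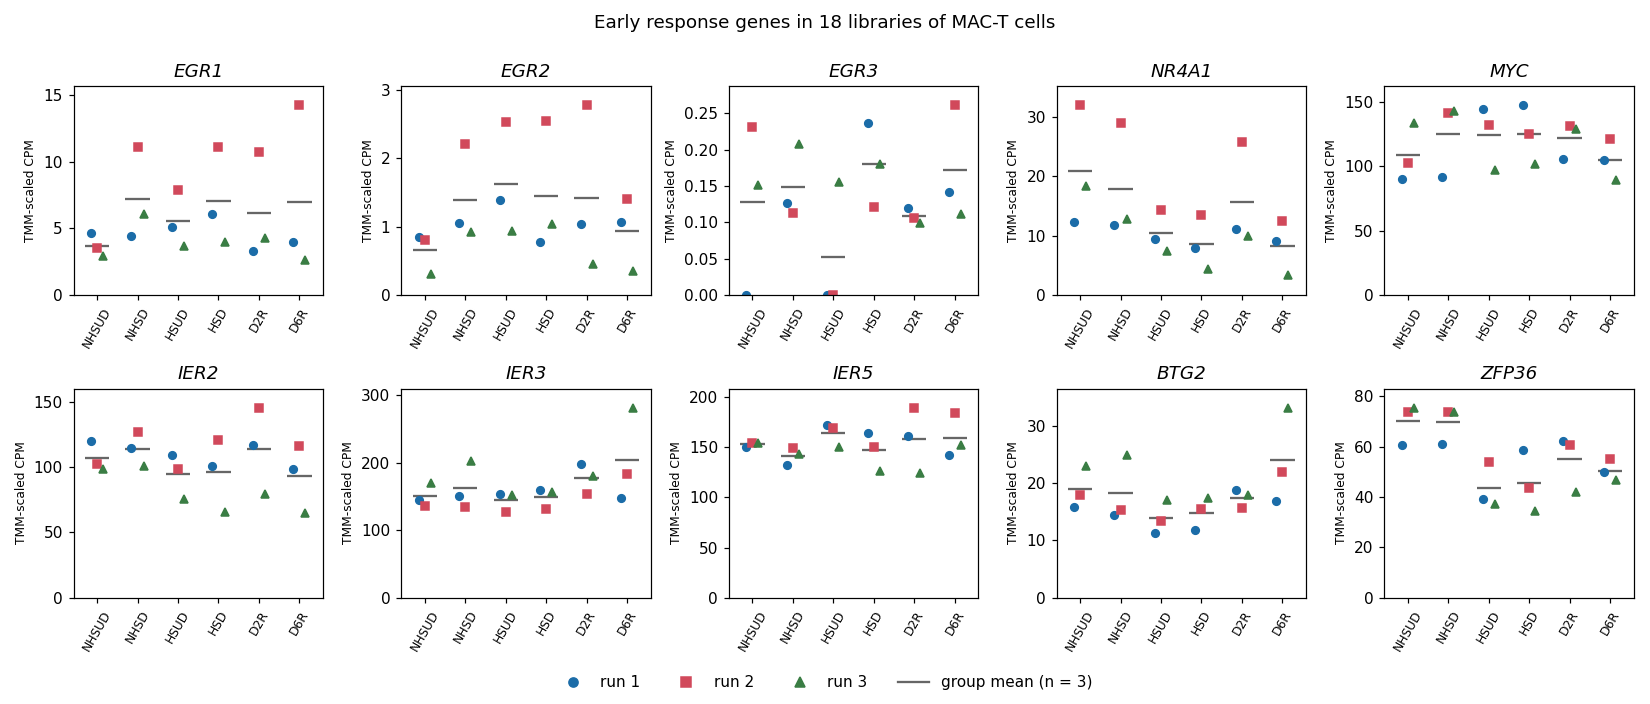
TMM-scaled CPM (vertical axis, linear, from 0, a separate scale for each gene) of the 10 genes in the 18 libraries, by group on the horizontal axis. Symbols mark runs 1 to 3 and bars the group mean (n = 3); NR4A1 was highest in run 2 in all 6 groups, and ZFP36 in every unheated library lay above every heated one.

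ZFP36 encodes tristetraprolin, which binds AU-rich elements and speeds the decay of early response and cytokine transcripts. Its level was 60.6, 73.8 and 75.5 CPM in NHSUD in runs 1, 2 and 3 and 61.2, 73.9 and 73.7 CPM in NHSD. In heated cells it was 39.3, 54.0 and 37.2 CPM in HSUD and 58.5, 43.4 and 34.5 CPM in HSD. No heated library reached the lowest unheated one in either medium. How many of all genes separate groups of libraries in this way was not counted, here or for EGR2 and IER5 below. In undifferentiated cells heat gave a log2 fold change of -0.69 ± 0.20 (SE, n = 3 and 3, adjusted p = 0.412; with the block -0.70 ± 0.17, adjusted p = 0.0700). In differentiated cells it gave -0.61 ± 0.20 (adjusted p = 0.676; with the block -0.63 ± 0.17, adjusted p = 0.126). Neither passed the test in these fits, and the change was downward in 3 of 3 runs in both media. Other blocked fits did call ZFP36: DESeq2 in both media (adjusted p = 0.00467 and 0.0221), the fit of NHSUD and HSUD alone (0.000721), and the fit without run 1 in both media (0.0335 and 0.00536). Over the 21 other settings the adjusted p ran from 0.000721 to 1 in undifferentiated and from 0.00536 to 1 in differentiated cells. Averaged over the media, ZFP36 fell by 0.65 ± 0.14 on the log2 scale, to 0.637 of the unheated level (adjusted p = 0.0329, and 0.00337 with the block). Over the 27 other settings of this average the adjusted p ran from 4.49e-06 to 0.553, and the log2 fold change from -0.85 to -0.46. The call without the block was lost when only these 4 groups were fitted (adjusted p = 0.0690), without any one of 8 of the 12 libraries, and without any whole run (0.0617, 0.553 and 0.455 without run 1, 2 and 3). The 8 were NHSUD of runs 2 and 3, NHSD of runs 2 and 3, HSUD of runs 1 and 3 and HSD of runs 2 and 3, whose omission gave adjusted p-values of 0.0827 to 0.104. With the block it held without each single library in turn (12 of 12) and was lost without run 2 (0.0509) or run 3 (0.0910). The means of the recovery groups lay between those of NHSD and HSD, at 62.3, 60.5 and 42.1 CPM in D2R and 49.7, 55.1 and 46.5 CPM in D6R. Every D6R library was below every NHSD library, with a log2 fold change of -0.46 ± 0.20 that missed the threshold (adjusted p = 0.769; 0.165 with the block).

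BTG2, an antiproliferative gene under p53 control, stood at 15.9, 17.9 and 23.0 CPM in NHSUD and 14.4, 15.3 and 24.9 CPM in NHSD in runs 1 to 3. The heated libraries gave 11.3, 13.5 and 17.1 CPM in HSUD and 11.8, 15.4 and 17.4 CPM in HSD. Run 3 was the highest in 5 of the 6 groups, and the groups overlapped, but within each run HSUD was below NHSUD. The log2 fold change with heat was -0.44 ± 0.26 in undifferentiated cells (with the block -0.44 ± 0.15, adjusted p = 0.217) and -0.30 ± 0.26 in differentiated cells (with the block -0.27 ± 0.15, adjusted p = 0.468). The average over both media was -0.36 ± 0.10 with the block (adjusted p = 0.0473) and missed the threshold without it (adjusted p = 0.521). That call was lost in 10 of 12 fits that left out a library, all but those without HSUD of run 2 and NHSD of run 1, with adjusted p-values of 0.0290 to 0.156 over the 12, and without each whole run (0.0560 to 0.459). At 2 h of recovery BTG2 was at 18.8, 15.6 and 18.02 CPM and at 6 h at 16.9, 21.9 and 33.2 CPM. D6R was the group with the highest mean, 24.0 ± 8.36 CPM (SD, n = 3), and its 33.2 CPM in run 3 was the highest of the 18 libraries. Against unheated differentiated cells the log2 fold change at 6 h was 0.40 ± 0.26 (adjusted p = 0.933), and BTG2 was not called. With the block it was 0.39 ± 0.15 (adjusted p = 0.186), and 0 of the 21 other settings called it. Against heated cells BTG2 rose by 6 h in the blocked fit, by 0.66 ± 0.15 on the log2 scale (1.58-fold, adjusted p = 0.0226), and in 3 of 3 runs. Without the block the estimate was 0.69 ± 0.26 (adjusted p = 0.497), and over the 21 other settings the adjusted p ran from 0.00172 to 0.999. The blocked call held without HSD or D6R of run 1 and was lost without HSD of run 2 (0.0526) or run 3 (0.140) and without D6R of run 2 (0.0695) or run 3 (0.180), and also without the whole of run 2 or 3 and in the blocked fit of the 2 compared groups alone (0.0642).

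NR4A1 encodes an orphan nuclear receptor that growth factors, cyclic AMP and stress induce. It varied by 9.74-fold over the libraries, with 12.3, 32.0 and 18.3 CPM in NHSUD, 11.8, 29.0 and 12.7 CPM in NHSD, 9.45, 14.3 and 7.38 CPM in HSUD and 7.83, 13.4 and 4.35 CPM in HSD. The heated and unheated groups overlapped across runs, since run 2 was the highest in 6 of 6 groups. Within every run the heated library was below the unheated one in both media. The log2 fold change was -1.005 ± 0.53 in undifferentiated cells (adjusted p = 0.999; with the block -0.99 ± 0.26, adjusted p = 0.114) and -1.07 ± 0.53 in differentiated cells (adjusted p = 0.996; with the block -1.08 ± 0.26, adjusted p = 0.0817). By run the difference in differentiated cells was -0.59, -1.12 and -1.54. Other blocked fits called NR4A1 in both media: DESeq2 (adjusted p = 0.00467 and 0.00153), the fits of the 2 compared groups (0.00170 and 0.0175) and the fits without run 1 (0.0188 and 0.00895). Over the 21 other settings the adjusted p ran from 0.00153 to 1 in differentiated and from 0.00170 to 1 in undifferentiated cells. Averaged over both media, NR4A1 fell to 0.488 of the unheated level in the blocked fit (log2 fold change -1.03 ± 0.18, adjusted p = 0.00386) and missed the threshold without the block (-1.04 ± 0.38, adjusted p = 0.332). The blocked call held without each of the 12 libraries in turn, and without run 1 (0.000453) or run 3 (0.0130), and was lost without run 2 (0.0822). Over the 27 other settings of the average the adjusted p ran from 1.98e-07 to 0.849.

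Through recovery NR4A1 did not keep to one direction. The D2R libraries held 11.1, 25.7 and 9.97 CPM, each above the HSD library and below the NHSD library of its run. At 2 h the log2 fold change was 0.87 ± 0.53 against heated cells (with the block 0.87 ± 0.26, adjusted p = 0.243; called by blocked DESeq2, 0.0334, and in the blocked fit of D2R and HSD alone, 0.00334) and -0.19 ± 0.52 against unheated cells, whose 95% interval ran from -1.30 to 0.91. At 6 h the libraries held 9.11, 12.5 and 3.28 CPM, and the last is the lowest of the 18. Against unheated cells NR4A1 fell by 6 h in the blocked fit, by 1.12 ± 0.26 on the log2 scale (0.459 of the unheated level, adjusted p = 0.0407), and by 0.37, 1.22 and 1.94 in runs 1, 2 and 3. Without the block the estimate was -1.11 ± 0.53 (adjusted p = 0.841), and over the 21 other settings the adjusted p ran from 0.000444 to 1. The blocked call held without D6R of run 1 (0.00525) or NHSD of run 1 (0.04998), and was lost without NHSD of run 2 (0.215) or 3 (0.146), without D6R of run 2 (0.151) or 3 (0.211), without the whole of run 2 or 3, and in the blocked fit of the 2 compared groups alone (0.0623). The direct comparison of 6 h with 2 h gave -0.91 ± 0.26 with the block and was not called (adjusted p = 0.227), while blocked DESeq2 (0.0236) and the blocked fit without run 1 (0.00786) called it. The comparisons with unheated differentiated cells share the 3 NHSD libraries, and those with heated cells the 3 HSD libraries, so they are not independent.

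**Figure D2:**
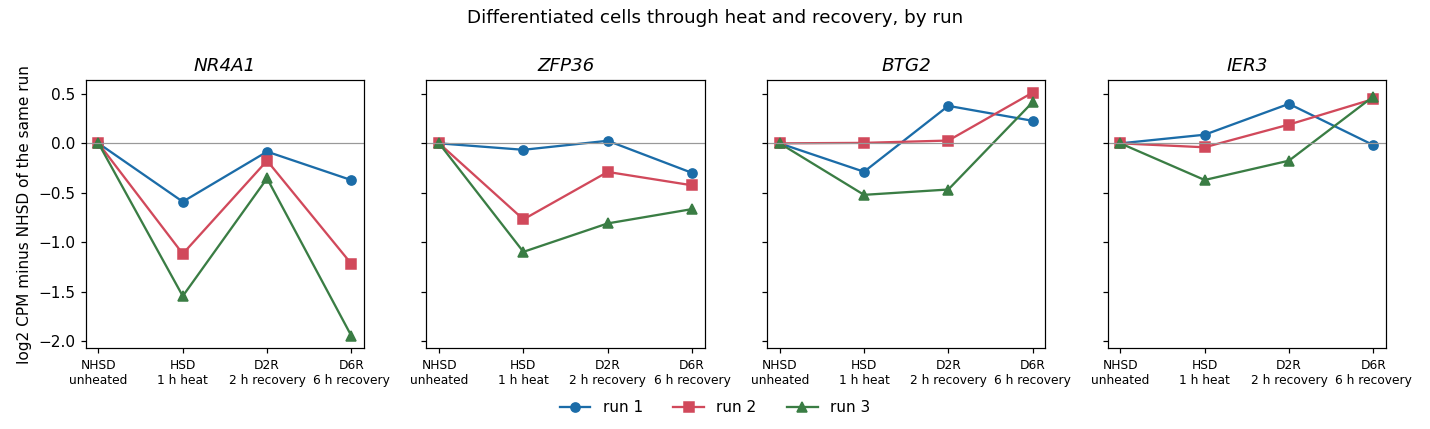
Difference of log2 CPM from the NHSD library of the same run (vertical axis) for NR4A1, ZFP36, BTG2 and IER3 in unheated, heated and recovering differentiated cells (horizontal axis), 1 line per run and no error bar. NR4A1 was 0.59 to 1.54 below NHSD after heat, 0.08 to 0.35 below at 2 h and 0.37 to 1.94 below at 6 h.

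EGR1 and EGR2 are zinc finger factors that bind GC-rich promoters and that growth factors and serum induce. EGR1 stood at 4.66, 3.48 and 2.92 CPM in NHSUD and 4.38, 11.1 and 6.08 CPM in NHSD, which overlap. The log2 fold change with the lactogenic medium was 0.96 ± 0.58, with a 95% interval of -0.27 to 2.19, and with the block 0.81 ± 0.35 (adjusted p = 0.926). The heated and recovering libraries lay between 2.65 CPM (D6R, run 3) and 14.2 CPM (D6R, run 2), so that one group held both the lowest and the highest level. The heat effect on EGR1 was 0.58 ± 0.58 in undifferentiated and -0.03 ± 0.57 in differentiated cells, and recovery moved it by -0.23 ± 0.57 at 2 h and -0.05 ± 0.57 at 6 h against unheated cells. Each of these 4 effects was about as large as its standard error or smaller.

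EGR2 was low, with 16 to 158 reads per library. NHSUD held 0.849, 0.808 and 0.303 CPM, NHSD 1.05, 2.21 and 0.920 CPM, HSUD 1.39, 2.52 and 0.935 CPM and HSD 0.771, 2.55 and 1.04 CPM. Unheated undifferentiated cells were the lowest group, and their libraries did not overlap with NHSD or with HSUD, which was not counted over all genes. The log2 fold change was 1.09 ± 0.67 with the lactogenic medium (with the block 1.06 ± 0.37, adjusted p = 0.718) and 1.31 ± 0.67 with heat in undifferentiated cells (with the block 1.25 ± 0.37, adjusted p = 0.168). Both comparisons rest on the same 3 NHSUD libraries, and neither passed the test. In differentiated cells the heat effect on EGR2 was 0.06 ± 0.65. The difference of the heat effects between the media was -1.25 ± 0.93, and with the block -1.22 ± 0.51 (95% interval -2.28 to -0.17, adjusted p = 1.00). It was negative in 3 of 3 runs and did not pass the test over all genes. Recovering cells held 1.04, 2.78 and 0.449 CPM in D2R and 1.06, 1.40 and 0.352 CPM in D6R.

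EGR3, the remaining EGR factor measured, was near the limit of detection, with 0 to 14 reads per library and 116 in all. It had 0 reads in NHSUD of run 1 and in HSUD of runs 1 and 2, where a count of 0 allows up to 3 reads, or 0.0499, 0.0744 and 0.0626 CPM, counting error alone; these limits are too low if each mate of a read pair was counted. All of its counts were even numbers, as were 69.2% of all counts from 1 to 99 in the table. Its highest level was 0.262 CPM, in D6R of run 2, and no difference between groups was detectable at this depth.

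IER2, IER3 and IER5 were abundant, with 2916 to 15176 reads per library. IER5 was the steadiest of the 10 genes, from 124 to 190 CPM over the libraries, a 1.53-fold range. Its level was 150, 154 and 154 CPM in NHSUD, 132, 149 and 143 CPM in NHSD, 173, 169.5 and 150 CPM in HSUD and 165, 151 and 127 CPM in HSD. Heat changed IER5 by 0.10 ± 0.15 in undifferentiated cells (95% interval -0.21 to 0.41) and by 0.06 ± 0.15 in differentiated cells (-0.25 to 0.36) on the log2 scale. The NHSD libraries all lay below the NHSUD libraries, by -0.11 ± 0.15, a difference smaller than its standard error without the block. With the block it was -0.11 ± 0.11, about as large as its standard error, and not called (adjusted p = 0.998). The IER5 libraries of recovering cells spanned 124 to 190 CPM in D2R and 142 to 184 CPM in D6R.

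IER3 kept to 127 to 203 CPM in the 4 groups without recovery. It reached 198, 154 and 179.7 CPM in D2R and 148, 184 and 281 CPM in D6R, where the run 3 library was the highest of all. Heat moved it by -0.06 ± 0.20 in undifferentiated and -0.12 ± 0.20 in differentiated cells. Recovery of 6 h gave 0.46 ± 0.20 against heated cells, upward in 2 of 3 runs and not called (adjusted p = 0.576; with the block 0.43 ± 0.14, adjusted p = 0.0804). Without D6R of run 3 the blocked estimate was 0.24 ± 0.13, and without D6R of run 1 it was 0.64 ± 0.11 and called (adjusted p = 0.00503); blocked DESeq2 called it as well (0.0460). Against unheated cells it was called only in the blocked fit without D6R of run 1 (0.0183). IER2 ranged from 64.9 to 146 CPM, and run 3 was its lowest in 6 of 6 groups. Its group means lay between 93.1 ± 25.9 CPM in D6R and 114 ± 33.1 CPM in D2R (SD, n = 3), and heat gave -0.18 ± 0.25 and -0.25 ± 0.25 on the log2 scale in the 2 media, downward in 3 of 3 runs in both. With the block these were -0.20 ± 0.13 (adjusted p = 0.535) and -0.29 ± 0.13 (adjusted p = 0.394). At 6 h against unheated cells IER2 had -0.33 ± 0.13 with the block (adjusted p = 0.209), downward in 3 of 3 runs and not called.

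MYC, the transcription factor that drives ribosome synthesis and growth, had 3741 to 8258 reads per library and 89.8 to 148 CPM. Its group means ran from 105 ± 15.8 CPM in D6R to 126 ± 29.3 CPM in NHSD, a ratio of 1.19. Its response to heat differed in sign between runs. In undifferentiated cells the heated library was above the unheated one by 0.68 and 0.37 in runs 1 and 2 and below it by -0.46 in run 3. In differentiated cells the differences were 0.69, -0.17 and -0.49. The mean effects were 0.20 ± 0.20 (95% interval -0.23 to 0.63) and 0.00 ± 0.20 (-0.43 to 0.43). Recovery of 6 h gave -0.25 ± 0.20 against unheated and -0.25 ± 0.20 against heated cells, neither called.

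**Figure D3:**
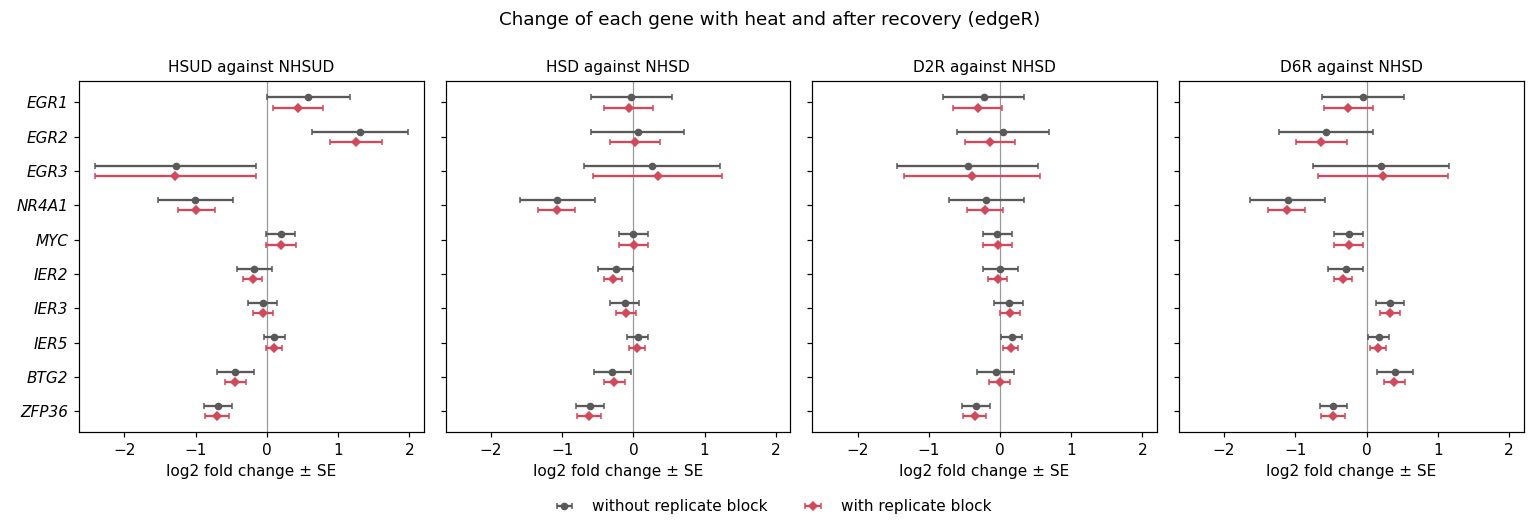
Log2 fold change (horizontal axis) of the 10 genes for HSUD against NHSUD, HSD against NHSD, D2R against NHSD and D6R against NHSD. Points and bars are the edgeR estimate ± SE without (circles) and with (diamonds) the run as a block; ZFP36 and NR4A1 lie below 0 in all 4 panels and MYC and IER5 within 0.26 of it.

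The runs set much of the spread. For each gene the squared spread of log2 CPM over the 18 libraries was divided into a share between groups, a share between runs and the remainder. Over all tested genes the median share between runs was 34.9% and that between groups 27.6%. IER2 (62.1%), EGR2 (58.7%) and EGR1 (56.9%) had most of their spread between runs, and NR4A1 (45.3%) and BTG2 (41.4%) were also above that median. IER3 (33.55%), IER5 (33.3%) and EGR3 (10.7%) were below it. In all, 5 of the 10 were above the median of all genes, so a large share between runs is not a trait of these 10. ZFP36 had 9.86% between runs and 63.6% between groups. MYC had 8.07% between runs and 75.0% in neither. When the 6 groups were ordered by mean, neighbouring groups overlapped in 5 of 5 steps for each of the 10 genes. This was not counted over all genes, so it cannot be read as a trait of these 10. The order ran from NHSUD, NHSD, D2R, D6R and HSD down to HSUD for ZFP36, and from NHSUD, NHSD, D2R, HSUD and HSD down to D6R for NR4A1. For BTG2 it ran from D6R, NHSUD, NHSD, D2R and HSD down to HSUD.

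**Figure D4:**
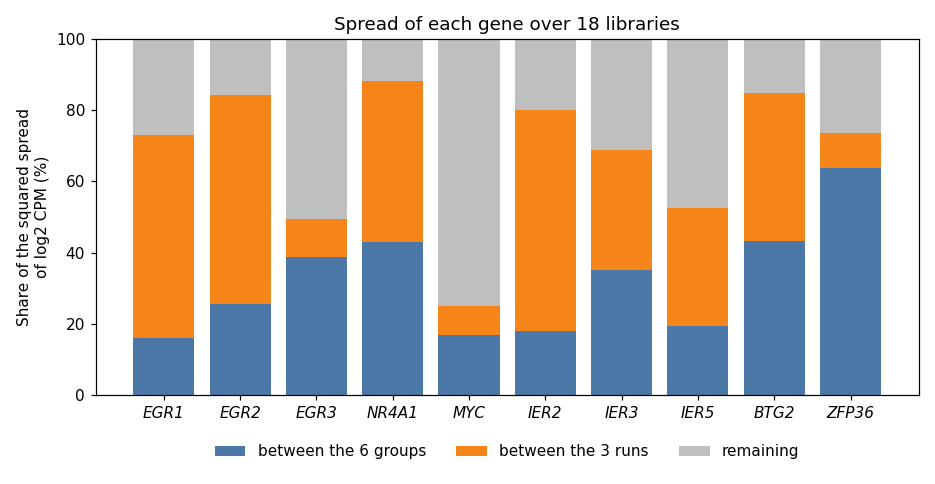
Share of the squared spread of log2 CPM over 18 libraries (vertical axis, %) that lies between the 6 groups, between the 3 runs and in neither, for each of the 10 genes (horizontal axis). The shares are raw, and noise alone gives 6 groups a larger share than 3 runs. IER2, EGR2 and EGR1 have the largest shares between runs among the 10, ZFP36 has 63.6% between groups, and MYC has 75.0% in neither.

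The pathway around these genes was described by lists of upstream, feedback and target genes, by counts and medians beside those of all tested genes. The lists were chosen with earlier results of these data known. A share of calls above that of all genes is therefore a description and not a test of a list. Among 21 other early response genes, all tested, 0 were called by heat in either medium without the block. With the block, 1 rose and 3 fell in undifferentiated cells, beside 0.633% of all genes called, and 1 rose and 4 fell in differentiated cells, beside 0.554%. The list's median log2 fold change with heat was -0.35 and -0.32, where that of all genes was 0.01 and -0.00. The anti-apoptotic gene MCL1 was the riser in both, by 0.38 ± 0.08 and 0.39 ± 0.08 with the block, from group means of 309 and 313 CPM to 401 and 409 CPM. The kinase genes PLK2 (-0.70 ± 0.11 and -0.77 ± 0.11) and SGK1 (-0.99 ± 0.11 and -0.68 ± 0.11) and the Notch target HES1 (-0.71 ± 0.13 and -0.60 ± 0.13) fell in both media with the block, and PLK3 (-0.67 ± 0.14) in differentiated cells. At 2 h of recovery PLK2 rose against heated cells without the block as well, by 0.95 ± 0.15 (adjusted p = 0.0246), from 491 ± 45.6 to 947 ± 33.2 CPM (SD, n = 3). SGK1 rose there with the block by 1.00 ± 0.11. Of all genes 0.0528% were called without the block and 0.389% with it. At 6 h against heated cells PLK2, SGK1, HES1 and SIK1 rose and RHOB fell with the block, beside 3.27% of all genes. Against unheated cells SGK1 rose (0.46 ± 0.11) and PLK3 fell (-0.73 ± 0.14) with the block, beside 1.45%. In the heat effect averaged over both media, MCL1 rose and PLK2, PLK3 and HES1 fell without the block (4 of 21, beside 0.785% of all genes), and 1 rose and 9 fell with it (10 of 21, beside 6.10%).

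ERK feedback inhibitors, phosphatases and adaptors that shut the pathway down, were represented by 16 tested genes of 17. Heat called 0 of them in either medium, with or without the block. Their median log2 fold change was -0.19 in undifferentiated and -0.33 in differentiated cells, with 12 of 16 below 0 in each, and DUSP1 had -0.80 ± 0.24 and DUSP8 -0.85 ± 0.35 as the largest changes. At 6 h against heated cells DUSP1, a phosphatase of the MAP kinases, rose by 1.35 ± 0.24 (adjusted p = 0.0455), from 51.5 ± 14.3 to 131 ± 49.0 CPM (SD, n = 3). SPRY1 rose there with the block by 0.69 ± 0.17. Of all genes 0.0660% were called without the block and 3.27% with it. In the average heat effect DUSP1 fell without the block, by 0.77 ± 0.17 (adjusted p = 0.0372; 1 of 16, beside 0.785% of all genes). With the block 5 of 16 fell, beside 6.10% of all genes: DUSP1, DUSP6 (-0.27 ± 0.07), DUSP7 (-0.31 ± 0.07), DUSP8 (-0.67 ± 0.18) and SPRY1 (-0.49 ± 0.12). Against unheated cells at 6 h only DUSP10 was called, with the block, by 0.61 ± 0.13, beside 1.45% of all genes. Of the 12 tested growth factor ligands and receptors (15 listed), AREG, an EGF receptor ligand, rose at 6 h with the block. It rose by 0.43 ± 0.11 against unheated cells, beside 1.45% of all genes, and by 0.54 ± 0.11 against heated cells, beside 3.27%. None of the 12 was called by heat in either medium, and the largest changes were EREG (0.47 ± 0.16) and IGF1R (-0.42 ± 0.25). In the average heat effect EREG rose with the block by 0.38 ± 0.08 (adjusted p = 0.0121), 1 of 12 beside 6.10% of all genes. Serum response factor and its partners, 8 tested of 10 listed, gave 0 calls in the 9 comparisons in both fits, and SRF itself had -0.32 ± 0.18 at 6 h against unheated cells. In the average heat effect ELK1 fell with the block, by 0.30 ± 0.08 (1 of 8, beside 6.10% of all genes).

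Relatives of the 10 genes, 20 tested of 21, had 0 calls in the 9 comparisons without the block. With the block, MYCN rose with heat in undifferentiated cells by 1.13 ± 0.23, from 3.80 to 8.18 CPM. BTG1 (-0.42 ± 0.09) and MNT (-1.02 ± 0.21), a MAX partner that opposes MYC, fell there. These calls stand beside 0.633% of all genes. In differentiated cells MNT alone was called, by -1.18 ± 0.21, beside 0.554% of all genes. In the average heat effect MYCN rose without the block, by 0.93 ± 0.20 (adjusted p = 0.0379, 1 of 20 beside 0.785% of all genes). With the block MYCN and IER5L (0.57 ± 0.14) rose and BTG1 (-0.34 ± 0.06), NR4A2 (-0.86 ± 0.17) and MNT (-1.10 ± 0.15) fell, which is 5 of 20 beside 6.10% of all genes. At 6 h against heated cells NR4A2 (1.24 ± 0.24) and BTG1 (0.44 ± 0.09) rose and MYCN (-1.16 ± 0.23) fell with the block, beside 3.27% of all genes. NR4A2 had group means of 8.86 CPM in HSD, 17.9 CPM in D2R and 22.1 CPM in D6R, whereas its relative NR4A1 had 8.52, 15.6 and 8.29 CPM. The difference between the 2 genes was not tested.

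Known targets were described in the same way. Of 20 MYC targets, genes of ribosome and polyamine synthesis among them, 0 were called by heat in either medium in both fits. At 6 h of recovery 17 of 20 were below 0 against unheated and 19 of 20 against heated cells, with medians of -0.19 and -0.19 where all genes had -0.00 and 0.01. SRM, spermidine synthase, was the one target called at 6 h, with the block, by -0.80 ± 0.14 against unheated and -0.72 ± 0.14 against heated cells. All genes were called at 1.45% and 3.27% in these fits. In the average heat effect HSPE1, a mitochondrial chaperonin, rose with the block by 0.43 ± 0.09 (1 of 20, beside 6.10% of all genes). Of 12 genes listed as EGR1 targets, EGR1 itself among them, 0 were called in the 9 comparisons in both fits. Their median with the lactogenic medium was 0.28, with 10 of 12 above 0, where all genes had -0.00. In the average heat effect the adhesion gene ICAM1 rose with the block by 0.41 ± 0.11 (1 of 12, beside 6.10% of all genes).

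The genes whose pattern was most like that of a member were taken by Pearson correlation of log2 CPM over the 18 libraries after the mean of each run was subtracted, among 9763 genes with a symbol and a mean of at least 5 CPM. These are the highest of many values, from libraries that share runs and plates, and carry no test. NR4A1 was most like FAM43A (r = 0.942) and KLF2 (0.924), ZFP36 most like ZNF579 (0.940) and PCNX3 (0.934), and BTG2 most like NECTIN4 (0.920) and RFX5 (0.902). EGR1 was most like LATS2 (0.904) and MKX (0.795), MYC most like TRIM35 (0.903) and PLAGL1 (0.863), and IER3 most like ACBD4 (0.894) and CCDC84 (0.885). For EGR2, IER2 and IER5 the closest were CHRNB1 (0.800), ABLIM3 (0.831) and ZNF584 (0.821), and for EGR3, with its few reads, CLBA1 (0.778).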

How the data were processed

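The deposited table holds raw counts per gene, 1 column per library for 18 libraries, and 0 sample columns were left over. Per the labels' protocols, the authors used fastp 0.23.2 for trimming and STAR 2.7.9a for alignment of the read pairs to the cattle assembly ARS-UCD 1.3. The submitters' processing notes list featureCounts 2.0.3, DESeq2 and limma without a role. Settings for strand and multi-mapped reads are not given in those notes, so overlapping or antisense genes may share reads. The excess of even values at low depth may mean that each mate of a pair was counted.

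Counts were filtered with filterByExpr (minimum count 10), scaled by TMM and fitted with edgeR 4.0.16 in R 4.3.3, with 1 mean per group over all libraries and a robust, two-sided quasi-likelihood test. Standard errors come from the F statistic. DESeq2 1.42.0 was an alternative, with DESeq2 size factors, library size alone, no filter, a filter of 5 CPM in 3 libraries, the compared groups alone, a replicate block, and leaving out each library. Added after seeing the data were the average heat comparison, blocked fits by DESeq2, of the compared groups alone and without single libraries, and fits without whole runs. The statistical script was tested on simulated data.

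The labels say the whole experiment was repeated, and deviations from the group means correlated positively between libraries of the same number (45 of 45 pairs, from 0.135 up to 0.596; other pairs had a median of -0.20), so the replicate numbers pair the libraries. Libraries of a group differed by a chi-square of at least 52.6 per gene, so none was treated as a duplicate. With 3 libraries against 3, an exact permutation test cannot go below p = 0.1, so genes were tested only through the model.

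The members and gene lists were chosen with earlier results of these data known. All 10 members are named; a list gene could be named only where it was called in either fit or had the largest change of its list at a mean of at least 5 CPM, and not every such gene is named. Names are those of the table, 10 of 10 found in RefSeq by symbol; its build differs from the authors', so no coordinates are given. MRTFA was not matched, and MRTFB was read as MKL2.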

Additional observations from a re-analysis of the deposited data

How the results depend on the processing

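In the 9 planned comparisons, all alternatives without a replicate block, including each left-out library and each left-out run, called 0 of the 10 genes. With the block, the number called was 1 for 6 h against unheated cells and 1 for 6 h against heated cells, where it had been 0, and it changed no other count of these 9. In the next sentences the number in brackets is that of all genes called in the same fit. The blocked DESeq2 fit called 2 with heat in undifferentiated (228) and 2 in differentiated cells (250). It called 1 at 6 h against unheated (681), 1 at 2 h against heated (162), 2 at 6 h against heated cells (1247) and 1 for 6 h against 2 h (131). The blocked fit of the compared groups alone called 2 for HSUD against NHSUD (259), 1 for HSD against NHSD (76) and 1 for D2R against HSD (160). The blocked fit without run 1 called 2 with heat in undifferentiated (73) and 2 in differentiated cells (501). It called 1 at 6 h against unheated (330), 2 at 6 h against heated cells (1090) and 3 for 6 h against 2 h (547). The average heat effect called 1 of the 10 without the block (119), 3 with it (925) and 3 with blocked DESeq2 (1579). The fit of the compared groups alone called 3 with the block (876) and 0 without it (101). Leaving out a library or run gave 0 to 1, and with the block 2 without run 1 (1358) and 0 without run 2 (267). Blocked fits without 1 library also called EGR2 (without HSD of run 1, adjusted p = 0.0408) and IER2 (without NHSUD of run 2, 0.0450) in the average heat effect. Between single groups, 1 of 6 such fits called ZFP36 and NR4A1 with heat in undifferentiated cells, ZFP36 with heat in differentiated cells, and BTG2 and NR4A1 for 6 h against 2 h. For the edgeR fit of all libraries with the replicate block, the shares of all genes are the percentages given beside each comparison. For blocked fits without 1 library, counts over all genes are not given here. Of 2184 refitted log2 fold changes of the 10 genes, 207 had another sign than the reported estimate, and 0 of these were called in either fit. They fell on 52 of the 100 results (a gene in a comparison), each with another sign in at least 1 refit. The largest reported estimate among these 52 was -1.28, for EGR3 with heat in undifferentiated cells. The causes of these changes were not tested. The depth limits EGR3 (0 to 14 reads) and EGR2 (16 to 158 reads).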
